A study of Mus musculus with 10 samples.

Results

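The 32 genes described here encode the subunits of the 2 Polycomb repressive complexes, PRC1 and PRC2, and the 2 demethylases that act on the PRC2 mark. They were taken by gene symbol, with no threshold on their values but with earlier results of these data known, from 23230 features, and all 32 were listed. RNAseq values of 10 mouse libraries were used, with 1 library per culture. AstroEGFR*, 3 libraries of separate astrocyte batches (AstroEGFR*1, AstroEGFR*2 and AstroEGFR*3), are cortical astrocytes of C57BL/6 mice at postnatal day 5 that lack p16/p19 (the *Ink4a/Arf* locus) and carry a retroviral human EGFRvIII, a constitutively active EGF receptor. PT, 4 libraries, are glioma propagating cells cultured from tumours that AstroEGFR* formed in CD1 Nude hosts, PT1 and PT4 being of batch 1, PT2 of batch 2 and PT3 of batch 3. AstroEGFR* *Zfp423*, 3 libraries, are by their labels the 3 astrocyte batches infected with a vector for the transcription factor gene *Zfp423*. By the labels, the loss of p16/p19 and EGFRvIII are thus shared by all 10 libraries, controls included. *Cdkn2a*, the gene of the *Ink4a/Arf* locus, was still listed at 3.96 to 130 FPKM in the 10 libraries, and since the labels do not say which part is deleted, this value does not check the knockout. AstroEGFR* were grown with serum and PT without serum in growth factors, so that the medium and passage through a tumour cannot be told apart.

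PRC2 places methyl groups on lysine 27 of histone H3 (H3K27) through its catalytic subunit EZH2 or EZH1, which works only together with EED and SUZ12. Canonical PRC1 reads the trimethylated mark through a CBX protein, ubiquitylates histone H2A through RING1 or RNF2 (RING1B) and compacts chromatin, while variant PRC1, built around RYBP or YAF2, reaches its sites without that mark. KDM6A (UTX) and KDM6B (JMJD3) remove the methyl groups, and in neural cells the balance of these enzymes is known for keeping differentiation genes silent in progenitors.

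The RNA classes and cell type markers of the libraries varied within groups. Small non-coding RNA made up 0.209% to 0.606% of the summed FPKM (fragments scaled to transcript length and library total) in AstroEGFR*1, PT1 and PT4, 4.81% and 6.06% in AstroEGFR*3 and PT3, and 27.5% to 54.5% in the other libraries. The depth of the libraries is unknown because no counts were used, and the lowest values above 0 were coarser in AstroEGFR*3 and PT3 (first percentile 0.0384 and 0.0299 FPKM) than in the rest (0.0042 to 0.00712 FPKM). *Zfp423* itself was listed at 15.7, 9.73 and 105 FPKM in the vector libraries, above the 3.25 to 4.3 FPKM of AstroEGFR*. All 8 microglial marker genes were higher in AstroEGFR*1 *Zfp423* and AstroEGFR*2 *Zfp423* than in any AstroEGFR* or PT library (their summed level reached 1530 FPKM, against 3.35 to 12.6 in AstroEGFR*). In AstroEGFR*3 *Zfp423* their sum was 1.2 FPKM and *Aif1*, *Itgam*, *Tyrobp*, *C1qa* and *C1qb* were listed at 0. The 10 astrocyte markers summed to 532 to 1090 FPKM in AstroEGFR* and 377 to 999 in PT, but to 65.1 in AstroEGFR*2 *Zfp423*, where *Gfap* was at 1.11 and *Aldh1l1* at 1.69. The neural progenitor genes *Fabp7* and *Sox2* were at 0.316 and 3.15 FPKM in that library, against 1260 and 114 in AstroEGFR*2, and *Olig1* was listed at 0. These values go against its label as an astrocyte culture, and whether it and AstroEGFR*1 *Zfp423* were mixed or mislabelled cultures was not tested. In both libraries *Xist* and *Uty*, given with *Kdm6a* below, were present or near 0 as in the AstroEGFR* of the same batch. The 8 fibroblast or meningeal markers summed to 1580 to 8500 FPKM in AstroEGFR* and 1.65 to 380 in PT, and 3 of them were called lower in PT. In the *Zfp423* libraries of batches 1, 2 and 3 they summed to 6100, 9230 and 351 FPKM, against 1660, 1580 and 8500 in the AstroEGFR* of the same batches, so that batches 1 and 2 moved up and batch 3 down. The part of these marker differences in the PT values of the Polycomb genes was not tested. In bulk RNA of such cultures, fewer cells of a type and less RNA per cell cannot be told apart.

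All 32 Polycomb genes were expressed, and none was called different between PT and AstroEGFR*. Levels between genes are compared in FPKM, which is per transcript length, and differences as log2 fold changes of FPKM + 1, a scale that understates the change of low genes. By limma with Benjamini-Hochberg adjustment over the 12261 features whose mean reached 1 FPKM, a filter that all 32 passed, 152 features (1.24%) had an adjusted p below 0.05, and 0 of the 32 did. At an unadjusted p below 0.05 the counts were 13.6% of the features and 0 of 32. With the batch as a replicate block the counts were 3.87% of features and again 0 of 32 at the adjusted threshold, where *Cbx6* had the lowest value among the 32 (adjusted p = 0.0747), and 25.4% of features and 8 of 32 at the unadjusted one. The log2 fold changes of the 32 genes ran from -1.31 (*Phf19*) to 0.86 (*Kdm6b*) with a median of -0.12, beside 0.03 over all features. Of the 32, 11 had a fitted value above 0 and 21 below, beside 52.1% and 47.9% of all features.

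The precision of these differences varied greatly from gene to gene. The 95% interval lay within a log2 fold change of -1 to 1 for 15 of 32 genes, beside 31.4% of all features, and for 20 of 32, beside 47.2%, with the batch as a block. Its median half-width was 0.82 on the log2 scale for the 32 genes and 0.85 for all features. For *Bmi1*, *Phc2*, *Mtf2*, *Ring1* and *Aebp2* the interval lay within -0.79 to 0.94, so that a difference of 1 log2 unit in the mean level was outside it. For *Pcgf1* it ran from -2.45 to 2.75, for *Rbbp7* from -1.9 to 1.11 and for *Phf19* from -2.73 to 0.11. With the batch as a block *Rbbp7* had a value of -0.17 (SE 0.23, limma adjusted p = 0.676) and *Pcgf1* of 0.64 (SE 0.26, adjusted p = 0.196). The median standard deviation of log2(FPKM + 1) within a group was 0.32 in AstroEGFR*, 0.45 in PT and 0.28 in AstroEGFR* *Zfp423* for the 32 genes, beside 0.41, 0.48 and 0.37 for all features tested.

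**Figure D1:**
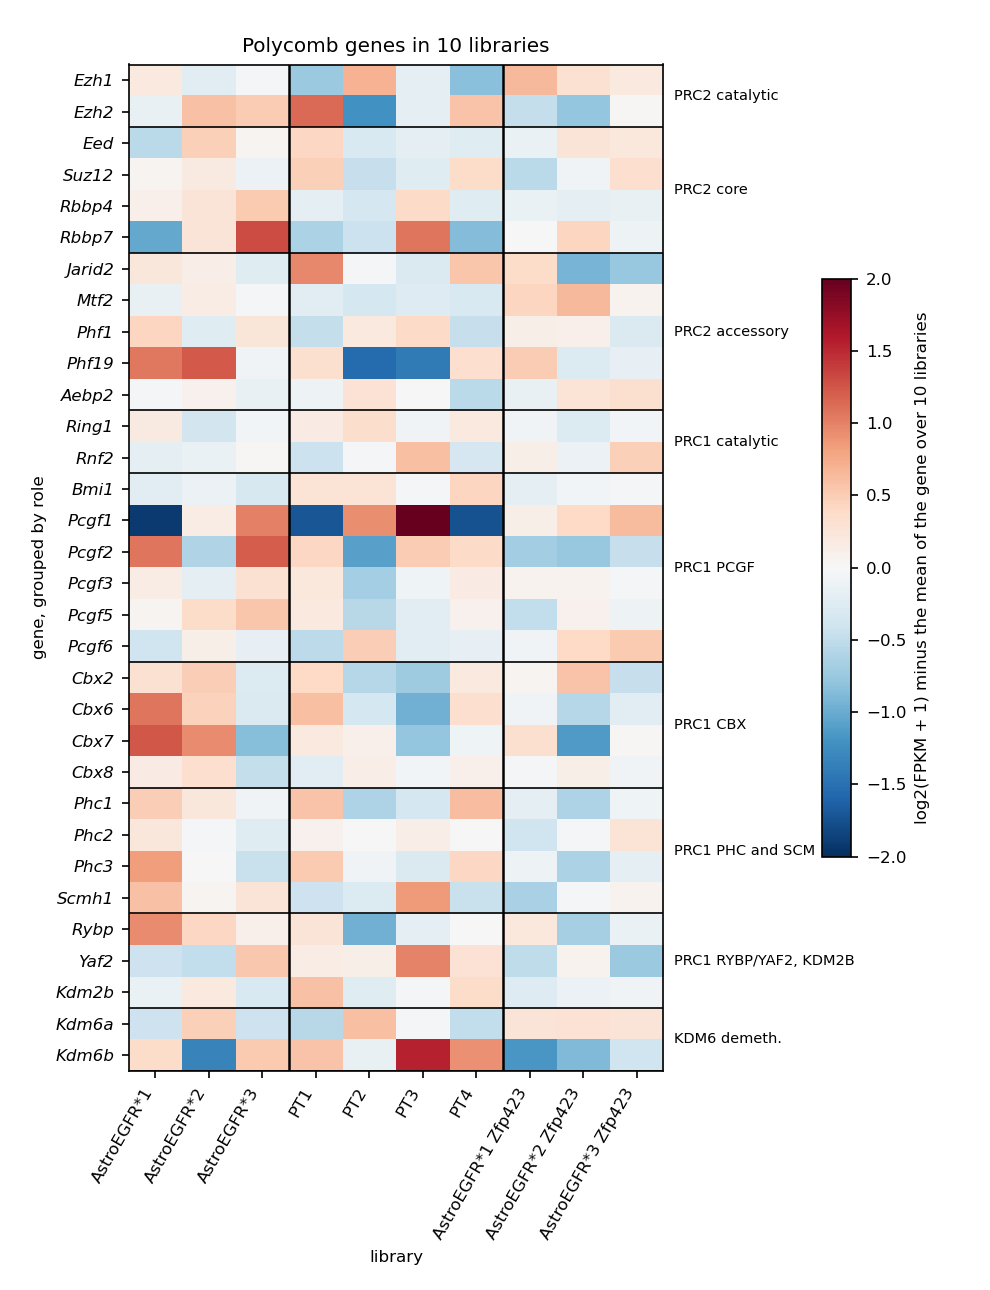
Log2(FPKM + 1) of the 32 Polycomb genes (rows, grouped by role) in the 10 libraries (columns, groups divided by black lines), each minus the mean of that gene over the libraries; colours stop at -2 and 2. *Pcgf1*, *Phf19*, *Kdm6b*, *Rbbp7* and *Ezh2* show strong colours in several libraries, while *Phc2*, *Aebp2* and *Bmi1* are nearly even.

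**Figure D2:**
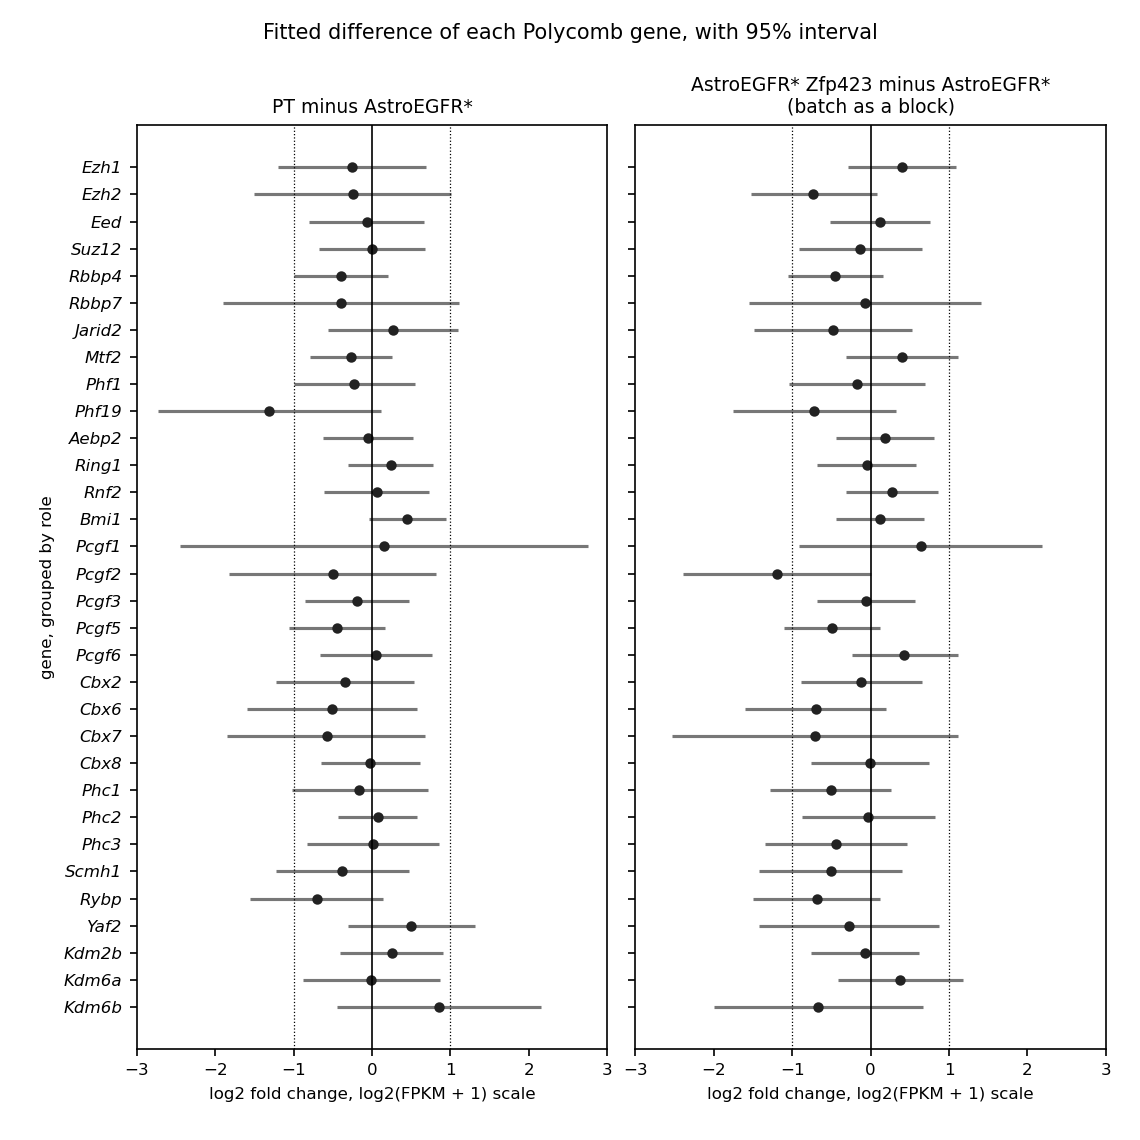
Fitted log2 fold change (points) and 95% interval (lines) of each Polycomb gene on the log2(FPKM + 1) scale, for PT against AstroEGFR* (4 against 3 libraries) and for AstroEGFR* *Zfp423* against AstroEGFR* (3 against 3, with the batch as a block); dotted lines mark -1 and 1. All intervals on the left include 0, and on the right all but that of *Pcgf2*, which ends just below it.

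Among the catalytic genes of PRC2, *Ezh2*, the methyltransferase of dividing cells, was listed at or above its homologue *Ezh1*, the form that prevails in resting cells, in all 10 libraries. *Ezh2* was at 21.9, 36.9 and 35 FPKM in the AstroEGFR* of batches 1, 2 and 3, at 54.4, 9.88, 21.2 and 36.6 FPKM in PT1, PT2, PT3 and PT4, and at 17.2, 13.8 and 24.6 FPKM in the 3 *Zfp423* libraries of batches 1, 2 and 3. The PT libraries thus held both the highest and the lowest value of the 10, and the groups overlapped. The log2 fold change of *Ezh2* in PT was -0.24 (SE 0.54, 95% interval -1.5 to 1.01, limma with Benjamini-Hochberg adjusted p = 0.9), and without PT2 it was 0.19. Without the 3 libraries low in small non-coding RNA (AstroEGFR*1, PT1 and PT4) it was -1.25 (limma adjusted p = 0.353, unadjusted p = 0.0417). Within batches, PT1 and PT4 were above AstroEGFR*1 by 1.27 and 0.71 on the log2 scale, whereas the differences of PT2 and PT3 from their own batches were -1.8 and -0.7.

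*Ezh1* ran the other way among the PT. It was at 6.68, 4.76 and 5.55 FPKM in AstroEGFR*, at 2.99, 9.85, 4.82 and 2.74 FPKM in PT1 through PT4, and at 9.47, 7.27 and 6.63 FPKM in AstroEGFR* *Zfp423*. PT1 and PT4 were the lowest of the 10 libraries and PT2 was the highest, and the fitted difference in PT was -0.26 (SE 0.41, limma adjusted p = 0.85). The ratio of *Ezh2* to *Ezh1* was 3.28, 7.77 and 6.31 in AstroEGFR*, and 18.2, 1.0, 4.39 and 13.3 in PT1 to PT4. In the *Zfp423* libraries it was 1.81, 1.9 and 3.71, lower than in the AstroEGFR* of the same batch each time.

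*Ezh2* was low in the PT libraries in which the proliferation genes were low. The 21 listed proliferation genes, which serve DNA replication and mitosis (*Mki67*, *Top2a* and the *Mcm* helicase genes among them), summed to 1417 and 1008 FPKM in PT1 and PT4, but to 135.6 in PT2 and 282.3 in PT3. In AstroEGFR*1, AstroEGFR*2 and AstroEGFR*3 the sum was 826.6, 1825 and 759.5 FPKM, and in the *Zfp423* libraries 791.2, 1026 and 430.2. All 21 had a fitted value below 0 in PT and in AstroEGFR* *Zfp423*, beside 47.9% and 48.3% of all features, and 0 of 21 were called in either. At an unadjusted p below 0.05 limma counted 2 and 5 of them, beside 13.6% and 7.38% of all features. The order of the 4 PT was the same for *Ezh2* and for this sum, PT1 above PT4, PT3 and PT2, whereas in AstroEGFR* the orders differed and in AstroEGFR* *Zfp423* they were opposite. PT1 and PT4 were also both of batch 1 and low in small non-coding RNA, and the 8 oligodendrocyte lineage markers summed to 1360 and 1690 FPKM in them, against 145 in PT2, 131 in PT3 and 66.8 to 223 in AstroEGFR*. *Olig1* was at 1000 and 1090 FPKM in PT1 and PT4 and at 69.3 and 89.8 in PT2 and PT3. Batch, RNA composition, lineage markers and proliferation cannot be told apart among these 4 libraries. Their part in the *Ezh2* values was not tested.

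The promoters of 27 of the 32 genes were found in a RefSeq table of build GRCm38.p6, which gives 250 bases before to 50 after each gene start (39 windows, since some genes have several). E2F factors drive S-phase genes, and the 8-base E2F letters TTTCCCGC, TTTCGCGC, TTTGCCGC and TTTGGCGC were searched for on both strands. They were found in 3 of the 39 windows (7.69%), those of *Ezh2*, *Suz12* and *Phf19*, beside 2.26% of 32851 windows of all genes. All 3 are PRC2 genes that were lower in PT2 and PT3 than in PT1 and PT4, as were 13 of the 32 genes in all, beside 30.1% of all features. Their windows are shown in part because these were the 3 members with a match, for *Suz12* and *Phf19* the 250 bases before the gene start and for *Ezh2* 268 bases that end 7 bases past the letters, each written 5′ to 3′ along the gene's strand with the E2F letters in capitals. The stretches printed are chr6:47595013-47595280 (*Ezh2*, minus strand, letters starting at base 4 after the gene start), chr11:79992856-79993105 (*Suz12*, plus strand, at -219) and chr2:34913977-34914226 (*Phf19*, minus strand, at -208, where the capitals are the reverse complement of TTTCCCGC). A match of letters is a description and not a bound site. The letters were chosen after the PT values were seen, and their part in those values was not tested.
Ezh2: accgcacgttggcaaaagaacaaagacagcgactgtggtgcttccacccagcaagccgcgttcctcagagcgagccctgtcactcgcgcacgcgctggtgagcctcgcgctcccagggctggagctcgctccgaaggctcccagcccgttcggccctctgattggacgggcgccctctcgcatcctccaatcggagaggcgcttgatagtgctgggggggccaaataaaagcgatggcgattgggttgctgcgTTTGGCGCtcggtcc
Suz12: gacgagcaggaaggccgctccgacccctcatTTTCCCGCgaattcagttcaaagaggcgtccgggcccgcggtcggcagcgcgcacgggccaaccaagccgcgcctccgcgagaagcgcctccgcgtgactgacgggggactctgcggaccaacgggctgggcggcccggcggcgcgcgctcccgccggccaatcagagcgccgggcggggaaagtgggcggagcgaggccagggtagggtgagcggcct
Phf19: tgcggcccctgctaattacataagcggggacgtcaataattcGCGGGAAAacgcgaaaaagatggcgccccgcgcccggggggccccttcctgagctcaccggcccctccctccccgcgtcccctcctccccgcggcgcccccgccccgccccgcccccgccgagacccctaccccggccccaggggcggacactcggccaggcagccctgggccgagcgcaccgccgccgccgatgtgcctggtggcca
The windows of the Polycomb genes were rich in CpG, with a median observed over expected CpG of 0.81 beside 0.384 for all genes, and a median GC content of 64.3% beside 52.7%. Each of the E2F strings holds a CpG, and the shares of windows with a match were not compared at like base composition.

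**Figure D3:**
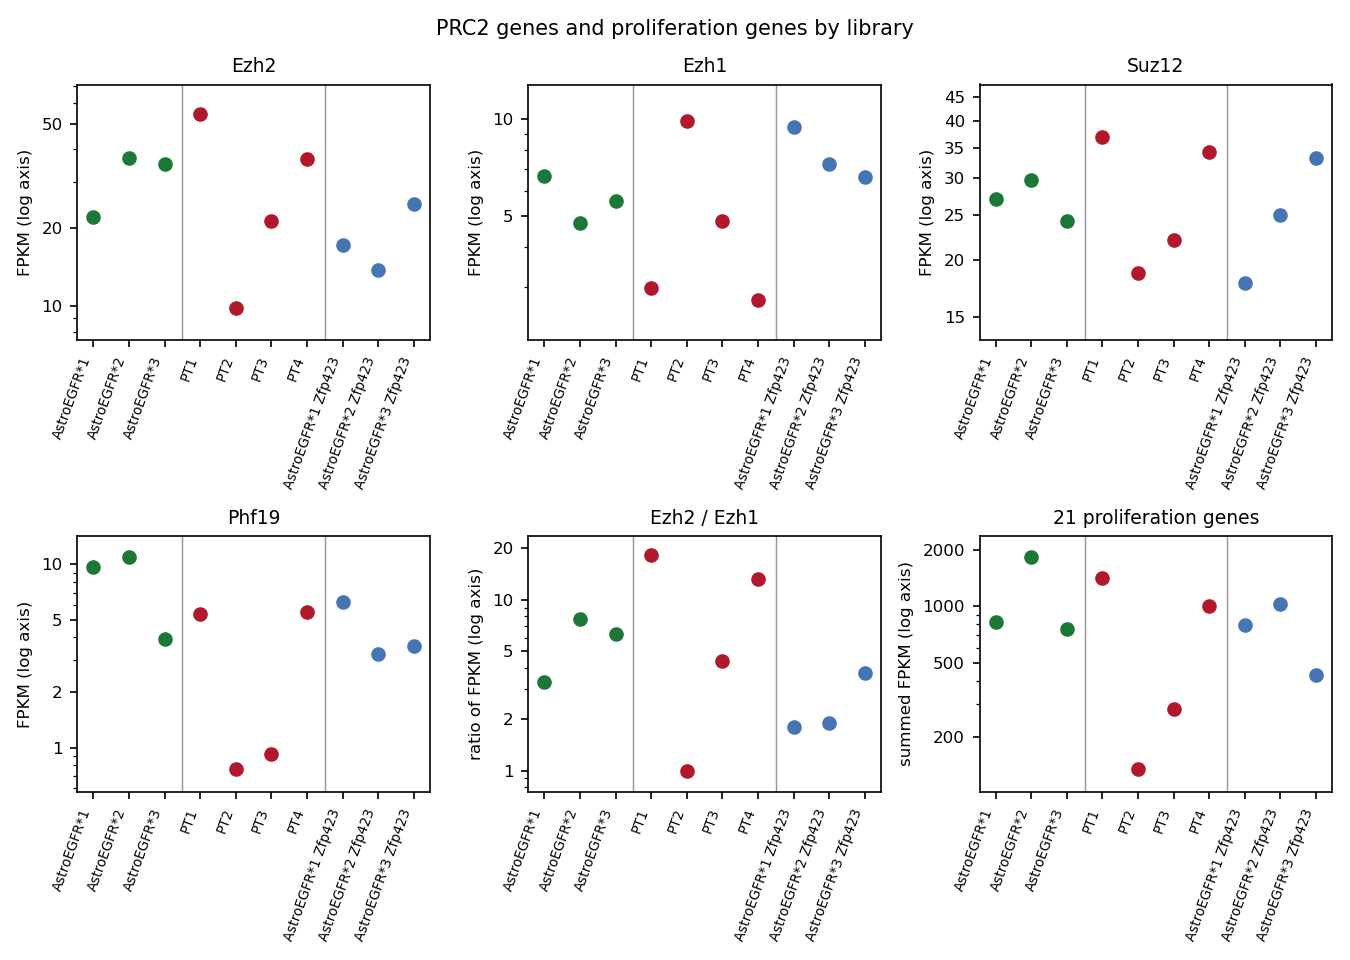
FPKM of *Ezh2*, *Ezh1*, *Suz12* and *Phf19*, the ratio of *Ezh2* to *Ezh1*, and the summed FPKM of 21 proliferation genes in each library (log axes; green AstroEGFR*, red PT, blue AstroEGFR* *Zfp423*; 1 point per library). PT2 and PT3 lie below PT1 and PT4 for *Ezh2*, *Suz12*, *Phf19*, the ratio and the proliferation genes, and above them for *Ezh1*.

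*Suz12* and *Eed*, the obligate partners of the methyltransferase, had overlapping ranges in the 3 groups. *Suz12*, whose product stabilises the methyltransferase, was at 24.2 to 29.8 FPKM in AstroEGFR*, 18.7 to 36.9 in PT and 17.8 to 33.3 in AstroEGFR* *Zfp423*, and its PT interval ran from -0.68 to 0.67 on the log2 scale. *Eed*, which binds the trimethylated mark and so lets PRC2 spread, was at 13.3 to 27.8, 15.9 to 26.8 and 17.9 to 23.9 FPKM in the same groups (PT interval -0.8 to 0.66). The histone chaperones *Rbbp4* and *Rbbp7*, which also serve other chromatin complexes, were the highest PRC2 genes, with medians of 78 and 135 FPKM in AstroEGFR*. *Rbbp4* was lower in every PT than in the AstroEGFR* of its batch (log2 differences of -0.62 to -0.15) and lower in all 3 *Zfp423* libraries (-0.67 to -0.23). *Rbbp7* spread 5.12-fold within AstroEGFR* (55.2, 135 and 282 FPKM) and 3.87-fold within PT (72.8, 83.8, 239 and 61.6 FPKM in PT1 to PT4), with the highest value of both groups in batch 3. In AstroEGFR* *Zfp423* it was at 113, 153 and 106 FPKM, and batch 3 was the lowest.

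The accessory subunits of PRC2 guide the core to its sites. *Mtf2*, one of the 3 Polycomb-like genes that recruit PRC2 to CpG islands, was at 5.28, 6.71 and 5.83 FPKM in AstroEGFR*. The values of PT1 through PT4 were 5.01, 4.47, 4.82 and 4.62 FPKM, and those of AstroEGFR* *Zfp423* were 8.36, 9.97 and 6.33 FPKM. Every PT was below every AstroEGFR*, which also held for 7.81% of all features, and every *Zfp423* library was above the AstroEGFR* of its batch. The mean log2(FPKM + 1) was 2.79 ± 0.15 (SD, n = 3) for the AstroEGFR* libraries and 2.52 ± 0.06 (SD, n = 4) for the PT. The difference was -0.27 (SE 0.22) and was not called by limma over all features (adjusted p = 0.67).

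*Phf19*, another Polycomb-like gene, had the largest fitted difference of the 32 with all 7 libraries. It was at 9.66, 11 and 3.9 FPKM in AstroEGFR*. In PT1 through PT4 it stood at 5.38, 0.763, 0.917 and 5.48 FPKM, and in AstroEGFR* *Zfp423* at 6.24, 3.25 and 3.58 FPKM. Only PT1 and PT4 reached the range of AstroEGFR*, and each PT was below its own batch, with log2 differences of -0.74, -0.72, -2.76 and -1.35 for PT1, PT4, PT2 and PT3. The log2 fold change was -1.31 (SE 0.61, limma adjusted p = 0.408), and -1.53 (SE 0.41, adjusted p = 0.0968) with the batch as a block. Without AstroEGFR*1, PT1 and PT4 it was -2.06 (limma adjusted p = 0.303). With 1 library left out it ran from -1.72 to -0.99, and *Pcgf2* was larger in size without AstroEGFR*2 and *Kdm6b* without PT2. The third Polycomb-like gene, *Phf1*, was at 4.01 to 7 FPKM in AstroEGFR* and 3.27 to 6.78 in PT. *Jarid2*, which anchors the other form of PRC2, was at 3.82 to 5.69 FPKM in AstroEGFR*, 3.68 to 10.2 in PT and 2.02 to 6.35 in AstroEGFR* *Zfp423*. Its partner *Aebp2* was the highest accessory gene in every group, with medians of 33.4, 33 and 41.6 FPKM.

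Among the catalytic genes of PRC1, *Rnf2* was higher than *Ring1* in all 10 libraries, with ratios from 1.62 to 4.0. *Rnf2* was at 24.8, 26 and 29 FPKM in AstroEGFR*. The values of PT1 through PT4 were 21, 28.2, 43.7 and 22.5 FPKM, and those of AstroEGFR* *Zfp423* were 31.2, 26.3 and 40.2 FPKM. PT1 and PT4 were the lowest and PT3 the highest of the 10, and the fitted difference in PT was 0.06 (SE 0.29, 95% interval -0.61 to 0.73), or -0.16 without PT3. *Ring1* was at 13.2, 8.67 and 11 FPKM in AstroEGFR*. In PT1 through PT4 it stood at 13, 14.9, 10.9 and 13.3 FPKM, and in AstroEGFR* *Zfp423* at 10.9, 9.37 and 11 FPKM. Its groups overlapped and its PT interval ran from -0.31 to 0.78.

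The PCGF proteins decide which PRC1 is formed, PCGF2 and PCGF4 (BMI1) the canonical complexes. *Bmi1*, known for self-renewal of neural stem cells through repression of *Ink4a/Arf*, was the highest PCGF gene by median in each group. It was at 29.9, 32.1 and 27.5 FPKM in AstroEGFR*. The values of PT1 through PT4 were 42.1, 42, 33.8 and 47.4 FPKM, and those of AstroEGFR* *Zfp423* were 30.1, 33.6 and 33.8 FPKM. Every PT was above every AstroEGFR*, which also held for 6.95% of all features, while the *Zfp423* libraries lay within 0.29 of their batches on the log2 scale. The mean log2(FPKM + 1) was 4.94 ± 0.11 (SD, n = 3) for the AstroEGFR* libraries and 5.39 ± 0.2 (SD, n = 4) for the PT, a difference of 0.45 (95% interval -0.04 to 0.94). It was not past the threshold by limma over all features (adjusted p = 0.409, or 0.163 with the batch as a block). *Bmi1* and *Mtf2* were the 2 of 32 whose PT and AstroEGFR* values did not overlap, beside 14.8% of all features.

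*Pcgf2*, the alternative to *Bmi1* in canonical PRC1, was lower in every PT than in its batch. It was at 14.7, 3.94 and 16.4 FPKM in AstroEGFR* and at 8.96, 2.55, 9.65 and 8.82 FPKM in PT1 through PT4, so that batch 2 was lowest in both groups and the groups overlapped. The within-batch differences were close to each other, from -0.71 to -0.48, and the block fit gave -0.62 (SE 0.16, limma adjusted p = 0.0917), where the fit without block gave -0.5 (SE 0.57, adjusted p = 0.771) and, with 1 library left out, from -1.09 without AstroEGFR*2 to -0.13 without PT2. *Pcgf1*, of the variant complex with KDM2B, was listed at 0.368 FPKM in AstroEGFR*1, 0.585 in PT1 and 0.539 in PT4, and at 4.63 to 21.5 FPKM in the other 7 libraries. *Pcgf3* and *Pcgf5*, of the variant complexes known from X inactivation, were at 19.7 to 28.2 and 13.7 to 19.8 FPKM in AstroEGFR* and at 13.7 to 26.3 and 8.7 to 15.3 in PT. *Pcgf6*, of the complex that binds E-box and E2F sites, was at 5.82 to 8.74 and 5.29 to 11.7 FPKM.

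Of the 4 CBX genes among the 32, whose chromodomains read the H3K27 mark, *Cbx6* was the highest in all 3 groups by median (49.8, 36.9 and 30.5 FPKM). It was at 76.9, 49.8 and 29.3 FPKM in AstroEGFR* and at 55.2, 28, 18 and 45.8 FPKM in PT1 through PT4, each PT being below its batch with log2 differences of -0.81 to -0.47. The block fit gave -0.69 (SE 0.15, limma adjusted p = 0.0747) and the fit without block -0.51 (SE 0.47, adjusted p = 0.712), which ran from -0.86 without AstroEGFR*3 to -0.18 without AstroEGFR*1. *Cbx7*, which opposes senescence through *Ink4a/Arf*, was at 7.59 and 6 FPKM in AstroEGFR*1 and AstroEGFR*2, 1.02 in AstroEGFR*3 and 1.12 to 3.16 in PT. *Cbx8* was at 5.26 to 10 FPKM in AstroEGFR* and 6.52 to 8.53 in PT, and *Cbx2* at 3.13 to 6.08 and 2.07 to 5.61.

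The PHC proteins join PRC1 complexes into larger bodies through their SAM domains. *Phc2* was the highest of this group of genes and one of the most even of the 32, at 67.3 to 93.9 FPKM in AstroEGFR*, 79.7 to 88.5 in PT and 60.3 to 97 in AstroEGFR* *Zfp423*. *Phc1* and *Phc3* were at 10 to 15.3 and 7.15 to 18.7 FPKM in AstroEGFR* and at 6.57 to 16.7 and 8.04 to 14.9 in PT. *Scmh1*, another SAM domain partner, was at 7.48 to 8.52 FPKM in PT1, PT2 and PT4, below the 11 to 16.4 of AstroEGFR*, but at 19.7 in PT3.

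*Rybp* and *Yaf2*, homologues that take the place of CBX in variant PRC1, differed in opposite directions within batches in PT but not in all *Zfp423* libraries. *Rybp* was at 12.5, 8.4 and 6.54 FPKM in AstroEGFR*. In PT1 through PT4 it stood at 7.43, 2.62, 5.22 and 6.08 FPKM, and in AstroEGFR* *Zfp423* at 7.12, 3.43 and 5.39 FPKM. *Yaf2* was at 23.4, 22 and 46.1 FPKM, at 34.7, 34.1, 63.4 and 38.7 FPKM, and at 21.8, 32.8 and 18.3 FPKM in the same order. Every PT was below its batch for *Rybp* (-1.38 to -0.28) and above it for *Yaf2* (0.45 to 0.7), although the groups overlapped for both. The block fit gave log2 fold changes of -0.82 (SE 0.25) and 0.57 (SE 0.15), neither of them called by limma (adjusted p = 0.125 and 0.0905). The ratio of *Yaf2* to *Rybp* was 1.87, 2.62 and 7.06 in AstroEGFR*, and 4.66, 13, 12.1 and 6.36 in PT1 to PT4. In the *Zfp423* libraries it was 3.07, 9.57 and 3.4, higher than in the AstroEGFR* of batches 1 and 2 and lower than in that of batch 3, and both genes were below their AstroEGFR* in batches 1 and 3. *Kdm2b*, which brings variant PRC1 to unmethylated CpG islands, was at 8.07 to 11.9 FPKM in AstroEGFR* and 8.48 to 15.8 in PT.

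The 2 demethylase genes differed in how they varied. *Kdm6a*, on the X chromosome, was at 7.81, 15.3 and 7.79 FPKM in AstroEGFR*. The values of PT1 through PT4 were 6.94, 16.7, 10.5 and 7.29 FPKM, and those of AstroEGFR* *Zfp423* were 13, 13.3 and 13 FPKM. In AstroEGFR* and PT the library of batch 2 was the highest, and the fitted PT difference was -0.01 (SE 0.38), with within-batch differences of -0.15 to 0.38. *Kdm6a* escapes X inactivation and has a Y-linked homologue, *Uty*, so *Uty* and the X-inactivation RNA *Xist* were looked up after these values were seen. *Xist* was listed at 20.4, 34.9 and 26.3 FPKM in the 3 libraries of batch 2 and at no more than 0.0403 in the other 7, whereas *Uty* was at 0 to 0.0174 FPKM in batch 2 and 3.65 to 13.1 elsewhere. The summed *Kdm6a* and *Uty* were 13.8, 15.3 and 15.3 FPKM in AstroEGFR*, 10.7, 16.7, 18.5 and 10.9 in PT1 to PT4 and 26, 13.3 and 25 in AstroEGFR* *Zfp423*. The part of the X and Y chromosomes in the *Kdm6a* values was not tested.

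*Kdm6b*, an inducible demethylase of differentiating and inflammatory cells, had the highest fitted value in PT with all 7 libraries. It was at 8.46, 1.91 and 9.55 FPKM in AstroEGFR*. In PT1 through PT4 it stood at 9.85, 5.59, 20.2 and 12.8 FPKM, and in AstroEGFR* *Zfp423* at 2.28, 2.96 and 4.58 FPKM. Batch 2 was the lowest in AstroEGFR* and in PT, each PT was above its own batch by 0.2 to 1.18, and the groups overlapped. The log2 fold change in PT was 0.86 (SE 0.56, 95% interval -0.44 to 2.16, limma adjusted p = 0.57), and 0.8 (SE 0.23, adjusted p = 0.113) with the block. Without the low AstroEGFR*2 it was 0.27, below *Bmi1*, *Kdm2b* and *Yaf2* among others, and without AstroEGFR*3 it was 1.2. In AstroEGFR* *Zfp423* the differences from batches 1, 2 and 3 were -1.53, 0.45 and -0.92.

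**Figure D4:**
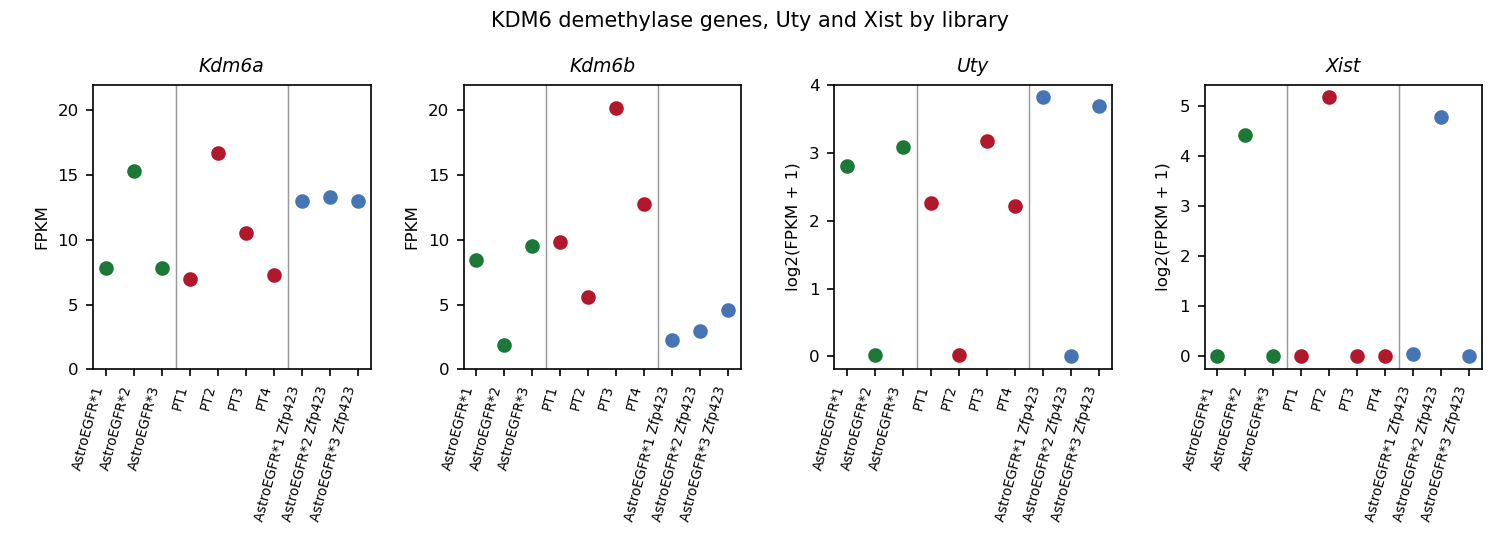
FPKM of *Kdm6a* and *Kdm6b*, and log2(FPKM + 1) of *Uty* and *Xist*, in each library (1 point per library; green AstroEGFR*, red PT, blue AstroEGFR* *Zfp423*). *Xist* is seen in the 3 libraries of batch 2 alone, where *Uty* is at 0 to 0.0174 FPKM, and *Kdm6a* is highest there in AstroEGFR* and PT.

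Within batches, 10 of the 32 genes differed in 1 direction in all 4 PT. *Bmi1*, *Pcgf1*, *Yaf2* and *Kdm6b* were higher in every PT than in the AstroEGFR* of its batch (4 of 32, beside 21.7% of all features). *Rbbp4*, *Mtf2*, *Phf19*, *Pcgf2*, *Cbx6* and *Rybp* were lower (6 of 32, beside 18.2%). PT1 and PT4 share 1 AstroEGFR* library, so that these 4 differences are not independent. The plot of the within-batch differences shows that *Cbx6*, *Pcgf2*, *Yaf2* and *Bmi1* had close values in the 3 batches, whereas *Phf19* and *Rybp* were lowest in PT2.

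**Figure D5:**
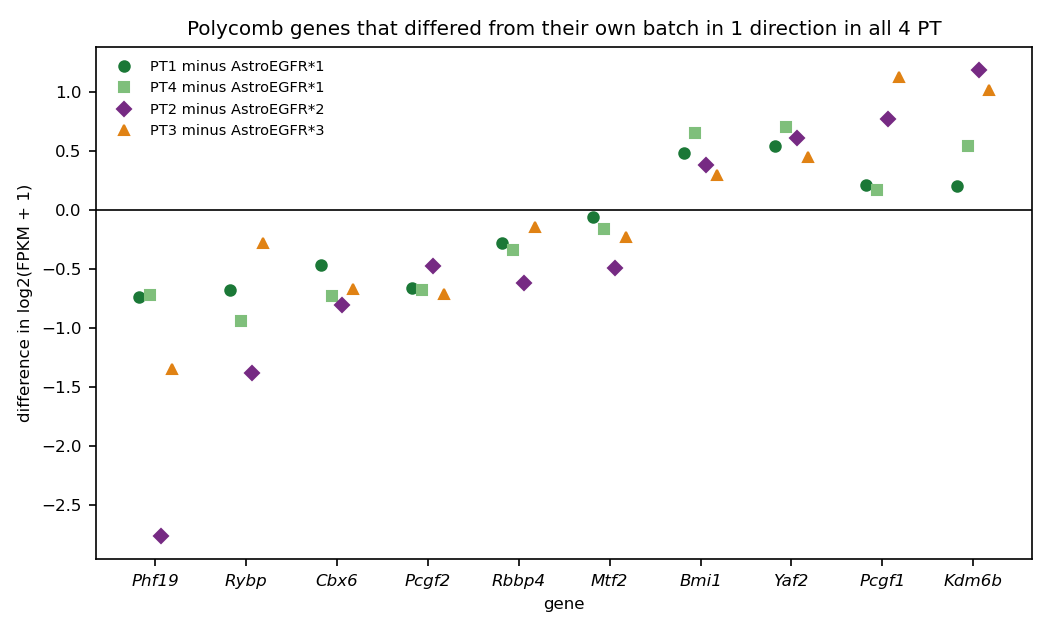
Difference in log2(FPKM + 1) between each PT and the AstroEGFR* of its batch for the 10 Polycomb genes with 1 direction in all 4 PT (1 point per PT; genes ordered by the block fit). The 6 genes on the left lie below 0 and the 4 on the right above, with *Phf19* reaching -2.76 in PT2.

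The PT of batch 1, PT1 and PT4, were set against the PT of the other batches. PT2 and PT3 were both below PT1 and PT4 for 13 of 32 genes, beside 30.1% of all features, and these included *Ezh2*, *Suz12*, *Jarid2*, *Phf19*, *Bmi1* and *Cbx6*. They were both above for 8 of 32, beside 30.0%, *Ezh1*, *Rbbp7*, *Rnf2*, *Pcgf1* and *Kdm6a* among them. In AstroEGFR*1, PT1 and PT4, the 3 libraries low in small non-coding RNA, *Rbbp7*, *Rnf2* and *Pcgf1* were below the other 7 libraries (3 of 32, beside 7.28% of 12476 features) and *Phc1* and *Phc3* above them (2 of 32, beside 5.07%). The part of the small non-coding RNA content in these values was not tested.

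The comparison of AstroEGFR* *Zfp423* with AstroEGFR* of the same batch asked what forced *Zfp423* does to the transcriptome. No Polycomb gene was called, nor was any other feature: limma with Benjamini-Hochberg adjustment and the batch as a block called 0 of 12366 features (0.0%) and 0 of the 32 genes, all of which passed the filter. At an unadjusted p below 0.05 it counted 913 features (7.38%) and 1 of the 32, *Pcgf2*. *Zfp423* itself, the forced gene, was not called (log2 fold change 2.52, limma adjusted p = 0.628). The lack of calls thus does not show that the Polycomb genes were unchanged. Without the block limma called 2 features. The 32 log2 fold changes ran from -1.2 (*Pcgf2*) to 0.64 (*Pcgf1*) with a median of -0.12, beside 0.02 over all features, and 9 of 32 were above 0 and 23 below, beside 51.7% and 48.3% of all features. The 95% interval lay within -1 to 1 for 11 of 32, beside 27.0% of all features. This comparison uses the same 3 AstroEGFR* libraries as that of PT, so that the 2 sets of differences share their controls.

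*Pcgf2* was at 3.64, 3.44 and 4.47 FPKM in AstroEGFR* *Zfp423*, with differences from batches 1, 2 and 3 of -1.76, -0.15 and -1.67 and a fitted value of -1.2 (SE 0.44, limma adjusted p = 0.628). The libraries of batches 1 and 3 were thus lower than their AstroEGFR*, and all 3 were close to the low AstroEGFR*2. Without AstroEGFR*2 *Zfp423* the fitted value was -1.72 (limma adjusted p = 0.592). Small non-coding RNA also differed most in batches 1 and 3, going from 0.209% to 34.7% of the summed FPKM in batch 1, from 4.81% to 54.5% in batch 3 and from 27.5% to 34.9% in batch 2. *Kdm6b* was likewise below its AstroEGFR* in batches 1 and 3 and above it in batch 2. The part of RNA composition in both genes was not tested. *Ezh2* differed by -0.33, -1.36 and -0.49 in batches 1, 2 and 3 and *Ezh1* by 0.45, 0.52 and 0.22. Their fitted values were -0.73 (SE 0.3, limma adjusted p = 0.628) and 0.4 (SE 0.25, adjusted p = 0.689), and without AstroEGFR*2 *Zfp423* they were -0.41 and 0.33 (limma adjusted p = 0.836 and 0.872). In all, 5 of 32 genes were higher in all 3 batches (*Ezh1*, *Mtf2*, *Rnf2*, *Bmi1* and *Pcgf6*, beside 16.3% of all features) and 8 of 32 were lower (*Ezh2*, *Rbbp4*, *Phf19*, *Pcgf2*, *Pcgf5*, *Phc1*, *Scmh1* and *Rybp*, beside 15.2%). In batch 3, whose *Zfp423* library had microglial markers at or near 0 but fibroblast or meningeal markers far below its AstroEGFR* (*Col1a1* at 3.83 against 1820 FPKM), the differences of these 13 genes ran from -1.67 to 0.68, and those of *Ezh2* and *Mtf2* were -0.49 and 0.1. No batch was thus free of marker differences. The part of microglial RNA in the values of batches 1 and 2, of the low astrocyte markers in batch 2 and of the fibroblast or meningeal markers in all 3 was not tested.

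Among the Polycomb-associated genes outside the 32, which serve variant PRC1, the H2A deubiquitylase and cofactors of the demethylases, 41 of 44 were found and 37 tested in PT. By limma 0 of 37 were called in either direction, with 2 at an unadjusted p below 0.05, beside 13.6% of all features, and a median log2 fold change of 0.08. With the batch as a block 2 of 37 were called, both lower in PT, beside 3.87% of all features. *Foxk1*, a forkhead factor that binds the deubiquitylase BAP1, was at 31.7, 8 and 18.6 FPKM in AstroEGFR* and at 9.76, 3.58, 5.9 and 8.87 FPKM in PT1 through PT4. The block fit gave -1.41 (limma adjusted p = 0.03) and the fit without block -1.24 (adjusted p = 0.33). *Asxl1*, which activates BAP1, was at 22.5, 17.3 and 12.7 FPKM in AstroEGFR* and at 13.1, 7.77, 6.6 and 12.5 FPKM in PT1 through PT4, with -0.88 in the block fit (adjusted p = 0.0481) and -0.77 without it (adjusted p = 0.358). Their homologues *Foxk2* and *Asxl2* had block values of 0.17 and 0.34 (limma adjusted p = 0.613 and 0.315), and *Bap1* itself was at 23.4 to 26.2 FPKM in AstroEGFR* and 25.3 to 41.8 in PT. In AstroEGFR* *Zfp423* 0 of 38 were called by limma, 0 also at an unadjusted p below 0.05, beside 7.38% of all features.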

How the data were processed

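RNAseq values of 10 libraries were used as 1 matrix. The authors deposited FPKM values, which the submitters' processing notes attribute to TopHat 1.3 and Cuffnorm on build mm9. Sources differ on the library kit (TruSeq RNA in the labels, ribosomal RNA removal and stranded kits in the paper) and on the *Zfp423* vector (lentiviral in the labels, retroviral in the paper). FPKM hold no counts, so that count models were not used and depth is unknown.

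FPKM were analysed as log2(FPKM + 1) with limma 3.58.1 in R 4.3.3 (linear model, empirical Bayes with trend, Benjamini-Hochberg adjustment over all features whose mean reached 1 FPKM, threshold 0.05). PT and AstroEGFR* were compared without a block. AstroEGFR* *Zfp423* and AstroEGFR* were compared with the astrocyte batch as a block. The pairing takes libraries of 1 batch to derive from the same astrocyte batch. This was not tested, and the markers of AstroEGFR*2 *Zfp423* go against its label as an astrocyte culture. The deviations from the group means of AstroEGFR* and PT of 1 batch correlated at r = 0.35, 0.42, 0.43 and 0.5 across 12476 features, and those of AstroEGFR* and AstroEGFR* *Zfp423* at 0.24, -0.11 and -0.26. The fits were tested on simulated data. No permutation p is given for *Bmi1* and *Mtf2*, which were picked because their groups do not overlap. Without a block, p-values measure the spread between libraries within a group, and PT1 and PT4 of 1 batch count as separate libraries. With the block they measure the spread left within batches. All cultures are of 3 astrocyte batches. Tables were made in Python 3.11.15 (pandas 2.3.3, numpy 2.4.6, scipy 1.17.1) and plots in matplotlib 3.10.9.

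The members, lists and tests were chosen with earlier results of these data known. The genes given in every library by rule were the catalytic genes and those without overlap between PT and AstroEGFR*, and *Phf19*, *Rbbp7*, *Pcgf2*, *Cbx6*, *Rybp* and *Yaf2* were added after their values were seen, as were the E2F letters, *Uty* and *Xist*. Alternatives were a pseudocount of 0.1 FPKM, no filter or a mean of at least 5 FPKM, median-ratio scaling, rescaling without 736 small non-coding RNA and 82 histone features, no variance trend, all 10 libraries in 1 fit, the block, PT1 and PT4 averaged, and each library left out in turn. Histone mark data were not analysed here.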

Additional observations from a re-analysis of the deposited data

Results flagged for a closer look

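In the 4 PT, 1 library lay far from the other 3 for 3 of the 32 Polycomb genes, by the gap to its nearest neighbour as a share of the range on the log2(FPKM + 1) scale (Dixon's test at the 95% level). *Eed* was at 26.8 FPKM in PT1 and at 15.9 to 17.3 in the other PT, a share of 0.838. *Pcgf2* was at 2.55 FPKM in PT2 and at 8.82 to 9.65 in the others, a share of 0.927, and AstroEGFR*2 of the same batch was also the lowest AstroEGFR*. *Scmh1* was at 19.7 FPKM in PT3 and at 7.48 to 8.52 in the others, a share of 0.869. Chance alone gives about 1 such library in 20 groups. Over all 12261 features tested, 6.98% had a PT library past the same limit, beside 3 of the 32 genes.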

How the results depend on the processing

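The count of Polycomb genes called was 0 under every alternative run in both comparisons, with a lowest adjusted p of 0.0747 in PT and 0.278 in AstroEGFR* *Zfp423* (limma, Benjamini-Hochberg), and the replicate block changed no call among the 32. The number of features called in PT depended on the fit: 152 as reported, 82 with all 10 libraries, 475 with the replicate block, 61 with PT1 and PT4 averaged. Leaving out 1 library gave 7 to 123, with 7 without AstroEGFR*1, 54 without AstroEGFR*3, 97 without PT1, 70 without PT2 and 58 without PT4. Among alternatives chosen after seeing the data, it was 0 without AstroEGFR*1, PT1 and PT4 (1638 at an unadjusted p below 0.05) and 8 without AstroEGFR*3 and PT3. In AstroEGFR* *Zfp423* it was 2 with no replicate block and 0 to 60 with 1 library left out, 47 without AstroEGFR*2 and 60 without AstroEGFR*2 *Zfp423*. The cause was not tested. In the fits with the batch as a block, a library left alone in its batch adds nothing to the fitted difference or its spread. Leaving out either library of a batch in that comparison thus gives the same log2 fold changes. The counts 47 and 60 are therefore not separate results.

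Of 574 refitted log2 fold changes of single Polycomb genes in PT, 47 in 19 genes changed sign, and of 444 in AstroEGFR* *Zfp423*, 24 in 11 genes, none of them called. Without AstroEGFR*1, PT1 and PT4 the values were -1.25 for *Ezh2* and -2.06 for *Phf19*, both of unchanged sign, and, with the sign changed, 0.37 for *Ezh1*, -0.1 for *Jarid2*, 0.3 for *Phf1*, 0.18 for *Aebp2*, 0.1 for *Cbx8*, 0.12 for *Scmh1*, -0.09 for *Kdm2b* and 0.25 for *Kdm6a*. Without AstroEGFR*3 and PT3 they were 0.02 for *Suz12*, -0.09 for *Rnf2*, -0.07 for *Phc2* and -0.13 for *Phc3*. With PT1 and PT4 averaged they were 0.02 for *Aebp2*, -0.09 for *Phc3* and 0.13 for *Kdm6a*. With the replicate block they were -0.12 for *Phc3* and 0.1 for *Kdm6a*, and *Phc3* was at -0.01 after rescaling without small non-coding RNA and histones. With 1 library left out, the PT values ran from -0.6 to 0.19 for *Ezh2*, -0.34 to 0.17 for *Eed*, -0.15 to 0.16 for *Suz12*, -1.0 to 0.17 for *Rbbp7*, -0.18 to 0.1 for *Aebp2*, -0.16 to 0.18 for *Rnf2*, -0.68 to 0.78 for *Pcgf1*, -0.33 to 0.00093 for *Pcgf3*, -0.15 to 0.19 for *Pcgf6*, -0.26 to 0.15 for *Cbx8*, -0.34 to 0.06 for *Phc1*, -0.04 to 0.2 for *Phc2*, -0.27 to 0.36 for *Phc3* and -0.25 to 0.29 for *Kdm6a*. In AstroEGFR* *Zfp423* they ran from -0.02 to 0.28 for *Eed*, -0.41 to 0.1 for *Suz12*, -0.62 to 0.6 for *Rbbp7*, -0.42 to 0.02 for *Phf1*, -0.13 to 0.05 for *Ring1*, -0.06 to 1.14 for *Pcgf1*, -0.21 to 0.09 for *Pcgf3* and for *Cbx8*, -0.31 to 0.27 for *Phc2*, -0.69 to 0.23 for *Yaf2* and -0.22 to 0.05 for *Kdm2b*.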

Other observations

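*Cdkn2a*, the gene of the *Ink4a/Arf* locus, was listed at 3.96 to 29.1 FPKM in AstroEGFR*, and at 7.48, 7.34, 130 and 9.01 in PT1 through PT4. The labels do not say which part of the locus is deleted, so a value for the whole gene does not check the knockout.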
